A study of Mus musculus with 20 samples.

Results

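Left limbs were set against right limbs of mouse embryos at embryonic day 13.5 (strain 129Sv). The comparison took every array of the series by the side named in its description, which gave 8 left and 12 right limbs, 20 of 20 arrays in all. The limbs fell into 4 groups of 5 by genotype and limb type: wild-type forelimbs, wild-type hindlimbs, Lmx1b-/- forelimbs and Lmx1b-/- hindlimbs, each with 2 left and 3 right limbs. Each array carried RNA of a dissected limb, so skin, skeleton, muscle, vessels and blood were measured together. Lmx1b encodes the LIM-homeodomain factor that gives limb mesenchyme its dorsal identity, and the homozygous Lmx1b-/- embryos are labelled loss-of-function mutants and called knockouts here. The labels do not say which left and right limbs came from the same embryo. Every p-value therefore speaks only of the spread seen among these limbs, which may in part be technical. The question was how small a difference between the sides these arrays can exclude for the genes that pattern the limb and mark its tissues.

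The vertebrate body is asymmetric inside and mirror-symmetric outside. In the early embryo, Nodal signalling switches on in the left lateral plate mesoderm, drives its own antagonists Lefty1 and Lefty2, and steers the looping of heart and gut. Limb buds grow from the same lateral plate later, and left and right buds are thought to read the same 3 axes, proximal to distal by FGFs of the apical ridge, anterior to posterior by Shh, and dorsal to ventral by Wnt7a, Lmx1b and En1. Retinoic acid is known for shielding paired structures from the left-right signal.

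The labels of genotype and limb type could be checked against marker genes, whereas the lists held no marker of side. Lmx1b lay between 5.60 and 6.09 in the 10 knockout limbs and between 6.14 and 6.52 in the 10 wild-type limbs on the log2 intensity scale, so the genotypes did not overlap. The knockout difference was -0.55 (SE 0.049). The probe set still gave signal in the knockouts. Tbx5, the forelimb T-box gene, was at least 8.26 in every forelimb and at most 5.09 in every hindlimb. Y-linked genes sorted the arrays into 6 male and 2 female left limbs and 7 male and 5 female right limbs (two-sided Fisher's exact test, p = 0.642). Xist, the RNA of X inactivation, was at least 8.29 in every female array and at most 3.27 in every male one. All 5 wild-type forelimbs were male. Array medians differed between the sides by -0.01 on the log2 scale (exact permutation of side within the 4 groups, 10000 arrangements, two-sided p = 0.476). Pairs of arrays from the same group were no closer on the same side than across sides: the SD of their difference over genes had a median of 0.225 for 16 same-side pairs and 0.221 for 24 left-right pairs.

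No gene passed the threshold for a side difference. In limma's fit with the 4 groups as blocks, 0 of 19936 genes (0%) had a Benjamini-Hochberg adjusted p under 0.05, and the smallest adjusted p was 0.223. At an unadjusted p under 0.05 there were 1889 genes (9.48%), 1150 higher on the left (5.77%) and 739 lower (3.71%). In the same arrays 1283 genes (6.44%) passed for hindlimb against forelimb and 405 (2.03%) for knockout against wild type, by the same fit and threshold. Without the second wild-type left hindlimb array 1 gene passed for side, Smim41, higher on the left by 0.32 (adjusted p = 0.0229).

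How large a side difference could remain was read from each gene's 95% interval. The bound is the limit of that interval farther from 0, written as a fold in either direction. Over all genes the median bound was 1.13-fold, with 1.07-fold at the 5th percentile and 1.27-fold at the 95th. The whole interval lay within 1.1-fold for 22.9% of genes, within 1.2-fold for 83.7%, within 1.5-fold for 99.6% and within 2-fold for 99.9%. They are intervals of array intensity, so a larger RNA difference is not excluded for genes near background. These intervals hold for a gene taken alone. Widened by Bonferroni over all 19936 genes, they had a median bound of 1.36-fold, and 81.8% of genes lay within 1.5-fold and 98.7% within 2-fold.

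The limb genes were less tightly bound than the average gene. There were 383 patterning and tissue genes in 20 lists. Their median bound was 1.16-fold, and 261 of them (68.1%) lay within 1.2-fold and 372 (97.1%) within 1.5-fold. With the widened intervals 227 lay within 1.5-fold and 346 within 2-fold. Some genes are in lists of both kinds. All 170 patterning genes lay within 1.5-fold, with a median bound of 1.15-fold. Of the 222 tissue genes, 211 lay within 1.5-fold, with a median of 1.18-fold. At an unadjusted p under 0.05 there were 28 of the 383 (7.31%), 9 higher and 19 lower on the left, against 9.48% of all genes.

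**Figure D1:**
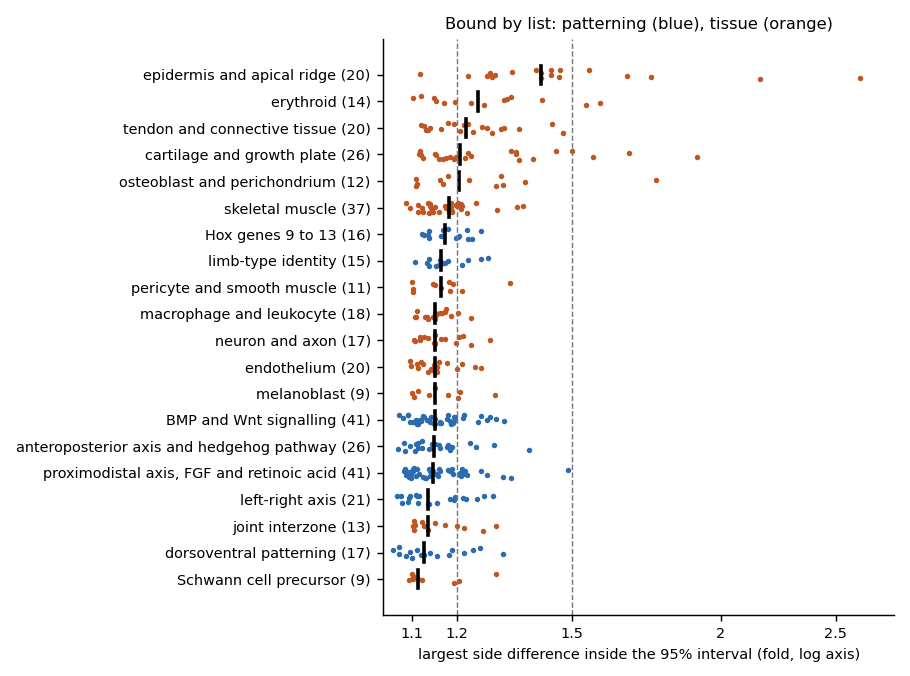
The largest side difference that each gene's 95% interval allows (fold, log axis) is plotted for every gene (points) of each list, patterning lists in blue and tissue lists in orange, with the list's median as a bar, its number of genes in brackets and dashed lines at 1.2-fold and 1.5-fold. The patterning genes all sit below 1.5-fold, while the epidermis list has a median of 1.41-fold and reaches 2.62-fold.

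The sign of the small differences went with the level of the gene. Genes with a mean log2 intensity between 4 and 5 had a median difference of 0.05, and 14.5% of them were higher on the left at an unadjusted p under 0.05 against 1.96% lower. Genes between 6 and 8 had a median of -0.04, with 0.719% higher and 6.37% lower. The distance between the mean of genes at 6 or above and the mean of genes below 5 was 3.57 ± 0.084 on left arrays (SD, n = 8) and 3.64 ± 0.067 on right arrays (SD, n = 12), a difference of -0.07 (exact permutation within groups, two-sided p = 0.0601, 0.0978 after Benjamini-Hochberg over 3 array measures). The contrast between bright and dim genes therefore did not pass this test, and its part in any single gene's value was not tested. After cyclic loess scaling, which evens out such shifts, the genes at an unadjusted p under 0.05 numbered 821 higher and 720 lower on the left, and with array medians set equal they numbered 1306 higher and 535 lower.

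**Figure D2:**
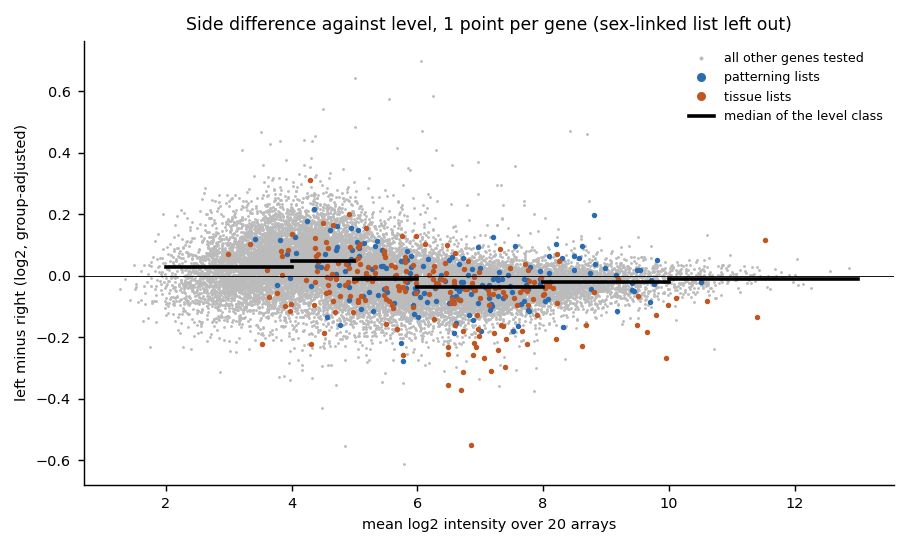
Each point is a gene, placed by its mean log2 intensity over 20 arrays and its left minus right difference (log2, adjusted for the 4 groups), with patterning genes in blue, tissue genes in orange and other genes in grey, and the black bars give the median of each level class. The median runs from 0.05 between levels 4 and 5 to -0.04 between 6 and 8, and few listed genes leave the range of the other genes.

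Nodal and its antagonists Lefty1 and Lefty2, which make the body asymmetric, were dim in limbs of both sides. Of 21 measured members of the left-right list, 8 had a mean log2 intensity of at least 5. The median difference was 0.01, 12 genes were higher on the left, and 16 had intervals within 1.2-fold. Of those 16, 8 had a mean log2 intensity of at least 5. The list held 2 genes higher and 1 lower at an unadjusted p under 0.05, against 5.77% higher and 3.71% lower of all genes, and none past the adjusted threshold. Some other members, Gdf1 and Pkd2 among them, were not analysed here.

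Nodal, the TGF-beta ligand that starts the left-sided programme, ran from 4.39 to 4.83 with a median of 4.57 in left limbs, and from 4.39 to 4.61 with a median of 4.50 in right limbs. The ranges overlapped, with the highest left limb above every right limb. The left minus right difference was 0.07 (SE 0.054, adjusted p = 0.698, bound 1.14-fold). Lefty1, its secreted antagonist of the midline, ran from 3.70 to 4.30 on the left and from 3.43 to 4.36 on the right, with medians of 4.18 and 4.14 (bound 1.21-fold). Lefty2, the antagonist of the left lateral plate, had medians of 3.39 and 3.34 (bound 1.26-fold). Both antagonists and Nodal lay among the dim genes of the arrays, where a bound on intensity need not bound the RNA.

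Gdf3, a Nodal-related ligand, stood first in the list by its p. It ran from 4.38 to 4.63 on the left (median 4.46) and from 4.0 to 4.58 on the right (median 4.26). The left limbs filled the upper part of the right limbs' range, and the left mean was higher in 4 of 4 groups. The difference was 0.22 (SE 0.069, unadjusted p = 0.0053, adjusted p = 0.327, bound 1.28-fold). Cfc1, the Nodal co-receptor, differed by 0.16 (SE 0.075, adjusted p = 0.513), with medians of 4.81 on the left and 4.62 on the right. Both genes belong to the dim levels at which the arrays as a whole read higher on the left. Nomo1, a membrane protein that antagonises Nodal, was the member lower on the left, with medians of 6.74 and 6.99 and a difference of -0.14 (SE 0.054, adjusted p = 0.420).

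The receptors and signal carriers of the pathway were bright enough to be bound tightly. Smad2, which carries Nodal and activin signals to the nucleus, differed by -0.01 with a bound of 1.07-fold, the narrowest of the list. The activin receptors Acvr2a and Acvr2b had bounds of 1.09-fold each and Acvr1b 1.15-fold. Snai1, a zinc-finger repressor that acts on the right of the early lateral plate, differed by 0.002 with a bound of 1.12-fold.

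**Figure D3:**
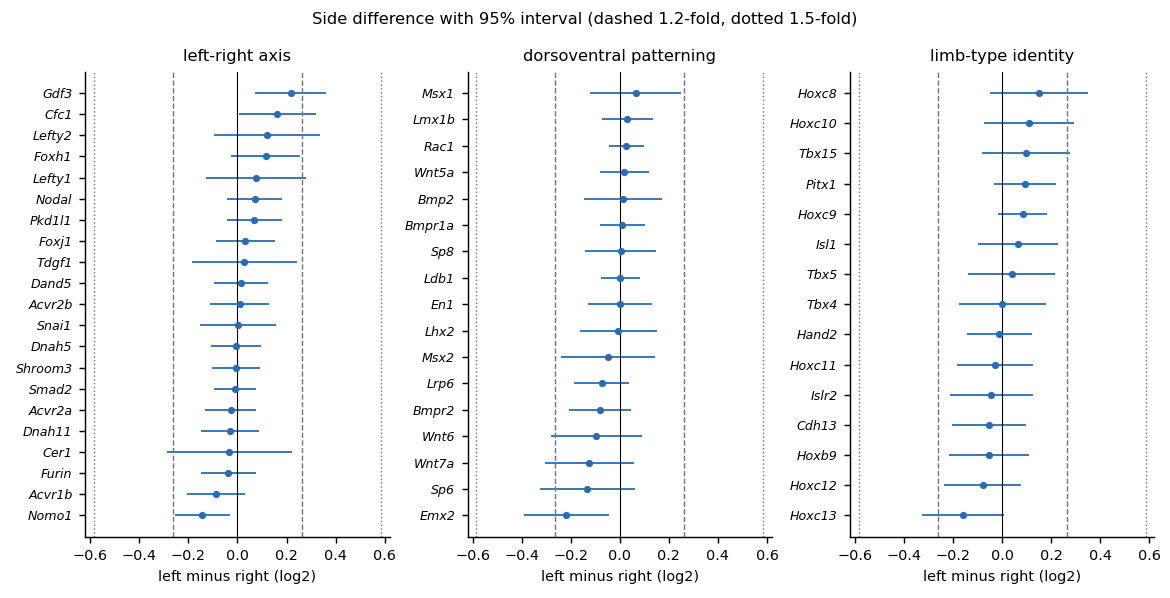
Left minus right differences (log2) are drawn as points with 95% intervals for every measured gene of the left-right, dorsoventral and limb-type lists, with dashed lines at 1.2-fold and dotted lines at 1.5-fold on either side of 0. All intervals of the 3 lists stay inside the dotted lines, and Gdf3, Cfc1, Nomo1 and Emx2 have intervals that leave out 0 before adjustment.

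The dorsoventral genes had a median difference of 0.00 over 17 members, 9 of them higher on the left. At an unadjusted p under 0.05 there was 1 gene lower on the left and none higher, and 13 of 17 intervals lay within 1.2-fold. Lmx1b itself ran from 5.75 to 6.52 on the left and from 5.60 to 6.48 on the right, with medians of 6.11 and 6.12. The spread within each side was that between genotypes, and the sides differed by 0.03 (SE 0.050, adjusted p = 0.881, bound 1.1-fold). The size of the knockout difference was 4.08 times the log2 bound for side.

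Wnt7a, the dorsal ectoderm signal that switches Lmx1b on, had medians of 5.92 on the left and 5.95 on the right and differed by -0.12 (SE 0.088, adjusted p = 0.676, bound 1.24-fold). En1, which keeps Wnt7a out of ventral ectoderm, differed by 0.0005 with a bound of 1.1-fold. Ldb1, the cofactor through which LIM-homeodomain proteins act, had the narrowest bound, 1.06-fold. Emx2, a homeobox gene of the proximal limb and girdle, had the widest, 1.31-fold. It ran from 4.57 to 6.61 on the left (median 5.61) and from 4.97 to 6.84 on the right (median 5.82), and the left mean was lower in 4 of 4 groups. The side difference was -0.22 (SE 0.083, unadjusted p = 0.0159, adjusted p = 0.420). Each side spans both genotypes, between which this gene differed by -1.32 (SE 0.081).

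Genes of limb type gave the arrays' own scale. The median side difference over 15 members was 0.00, with 8 higher on the left, none at an unadjusted p under 0.05 in either direction, and 11 of 15 intervals within 1.2-fold. Tbx5 ran from 8.26 to 8.93 in left forelimbs and from 8.41 to 8.89 in right forelimbs, and from 4.52 to 5.09 and 4.38 to 4.76 in left and right hindlimbs. The sides overlapped within each limb type. Its side difference was 0.04 (SE 0.085, adjusted p = 0.917, bound 1.16-fold), while hindlimbs were below forelimbs by -3.93 on the same scale, 18.3 times the log2 bound for side.

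Pitx1, the hindlimb homeobox gene, had medians of 8.49 in left and 8.46 in right hindlimbs and of 5.53 and 5.38 in forelimbs. It differed by 0.09 between the sides (SE 0.061, adjusted p = 0.641, bound 1.17-fold) and by 3.0 between the limb types. Tbx4, the T-box gene downstream of Pitx1, had medians of 7.70 and 7.77 in left and right hindlimbs and of 6.19 and 6.11 in forelimbs. Its side difference was 0.0001 (bound 1.13-fold) against a limb-type difference of 1.59. Isl1, which opens the hindlimb programme, differed by 0.06 between the sides (bound 1.17-fold) and by 1.27 between limb types. For these 4 genes the limb-type difference was between 5.55 and 18.3 times the log2 bound for side.

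**Figure D4:**
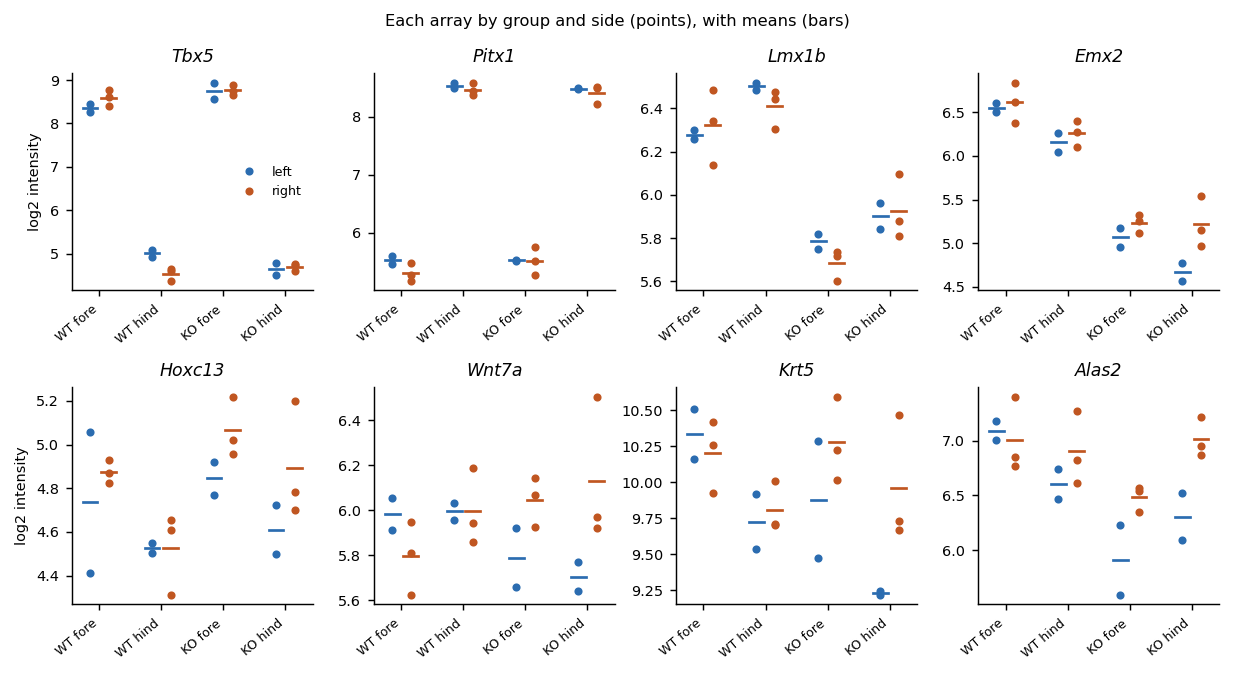
Log2 intensities of 8 genes are plotted for each array (points) with the mean (bar) of each side, left in blue and right in orange, in wild-type (WT) and knockout (KO) forelimbs and hindlimbs. Tbx5 and Pitx1 separate the limb types and Lmx1b and Emx2 the genotypes on both sides alike, while left Krt5 and Alas2 means in knockouts lie below the right ones.

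The posterior Hox genes, which assign positions along the limb and between limb types, had a median difference of -0.03 over 16 members, with 6 higher on the left and 10 intervals within 1.2-fold. Hoxa11, a gene of the forearm and shank segment, was bound at 1.12-fold. Hoxc13, a gene of the most distal skin and nails, had the widest bound of the list, 1.26-fold, with a difference of -0.16. Hoxb13 was the member at an unadjusted p under 0.05. It was dim, with medians of 4.35 on the left and 4.17 on the right, and differed by 0.18 (SE 0.062, unadjusted p = 0.0094, adjusted p = 0.380).

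Along the anteroposterior axis, 26 members of the hedgehog pathway and its neighbours had a median difference of -0.01, and 22 intervals lay within 1.2-fold. Shh, the ligand of the posterior margin, was dim by this age, with medians of 5.04 on the left and 4.89 on the right and a difference of 0.15 (SE 0.077, adjusted p = 0.548, bound 1.24-fold). Hand2, the posterior factor that allows Shh, had a bound of 1.11-fold, and Gas1, a hedgehog co-receptor, had the narrowest, 1.07-fold. Hhip, the membrane protein that binds and sequesters hedgehog ligands and is itself a target of the pathway, was the 1 member lower on the left at an unadjusted p under 0.05. It ran from 4.68 to 6.15 on the left (median 5.86) and from 5.13 to 6.66 on the right (median 5.90), with the left mean lower in 4 of 4 groups. The difference was -0.28 (SE 0.089, unadjusted p = 0.0050, adjusted p = 0.327, bound 1.38-fold).

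The proximodistal list joined 41 genes of the apical ridge, FGF signalling and retinoic acid, with a median difference of -0.01 and 29 intervals within 1.2-fold. Fgf17, a ridge FGF, was the member higher on the left at an unadjusted p under 0.05, with medians of 4.70 and 4.56 and a difference of 0.15 (SE 0.058, adjusted p = 0.423). Fgfr2, the receptor through which mesenchyme and ridge exchange FGF signals, had a bound of 1.13-fold. Pbx2, a partner of proximal Meis and Hox proteins, had the narrowest, 1.08-fold. Aldh1a2, the enzyme that makes retinoic acid, had the widest of all patterning genes, 1.49-fold. It ran from 7.16 to 9.73 on the left (median 9.27) and from 7.43 to 9.54 on the right (median 8.60). These ranges also hold differences between the 4 groups, whose means the fit takes out. The side difference of Aldh1a2 was 0.20 (SE 0.181, adjusted p = 0.756).

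BMP and Wnt genes leaned towards the right. The median difference over 41 members was -0.04, and 11 were higher on the left. At an unadjusted p under 0.05, 6 were lower and 0 higher, which is 14.6% lower against 3.71% of all genes. Of genes between levels 6 and 8, where the list's median level of 6.61 lies, 6.37% were lower at that p. Under cyclic loess scaling 3 of the 41 were lower and 0 higher at that p, 25 of 41 were lower at all, and the list's median was -0.01. Rspo3, the R-spondin that amplifies Wnt signals, ran from 6.23 to 6.82 on the left (median 6.51) and from 6.26 to 6.97 on the right (median 6.67). The difference was -0.15 (SE 0.045, unadjusted p = 0.0029, adjusted p = 0.315), with the left mean lower in 4 of 4 groups. The BMP ligands Bmp4, Bmp5 and Bmp6 differed by -0.11, -0.18 and -0.12, with adjusted p of 0.466, 0.419 and 0.456. Ctnnb1, the beta-catenin gene, had the narrowest bound at 1.07-fold, and Dkk3 the widest at 1.31-fold.

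The cartilage and bone lists were less tightly bound than the patterning genes and varied among limbs of the same group. Over 26 cartilage and growth plate genes the median difference was -0.05, with no member at an unadjusted p under 0.05 and 13 intervals within 1.2-fold. The list level, given as the deviation of an array from its group mean, was -0.03 ± 0.229 on the left (SD, n = 8) and 0.02 ± 0.270 on the right (SD, n = 12). Matn1, a cartilage matrix protein, ran from 4.76 to 6.79 on the left and from 4.6 to 7.06 on the right, and its interval reached 1.91-fold. Col11a2, a fibrillar collagen chain of cartilage, had the narrowest bound, 1.11-fold. Among 12 osteoblast and perichondrium genes, none at an unadjusted p under 0.05, Ibsp, the bone sialoprotein gene, reached 1.76-fold. Its medians were 3.92 and 3.68 and its highest arrays 6.47 and 6.96. Of 13 joint genes, 10 had intervals within 1.2-fold, and Gdf5, which marks the interzone, differed by -0.03 with a bound of 1.29-fold. Erg, an interzone and endothelial ETS factor, was the member at an unadjusted p under 0.05, with medians of 7.23 on the left and 7.38 on the right and a difference of -0.16 (SE 0.049, unadjusted p = 0.0039, adjusted p = 0.327).

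Tendon and connective tissue genes were lower on the left in 16 of 20 members, with a median of -0.10. At an unadjusted p under 0.05, 3 were lower and none higher. Of all genes 3.71% were lower at that p, and of genes between levels 6 and 8, 6.37%. Under cyclic loess scaling 2 members were lower and 1 higher at that p. The 3 lower in the main fit were Tnc, Fmod and Bgn, matrix genes of tendon. Their differences were -0.22, -0.20 and -0.18, with adjusted p of 0.417, 0.411 and 0.525. Scx, the transcription factor of tendon progenitors, differed by -0.02 with a bound of 1.12-fold. The list level was -0.06 ± 0.145 on the left (SD, n = 8) and 0.04 ± 0.135 on the right (SD, n = 12).

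Skeletal muscle was balanced. The list level was -0.001 ± 0.147 on the left (SD, n = 8) and 0.0005 ± 0.141 on the right (SD, n = 12), and 28 of 37 intervals lay within 1.2-fold. Lbx1, which migrating muscle precursors need to enter the limb, was the 1 member at an unadjusted p under 0.05, with a difference of 0.13 (SE 0.055, adjusted p = 0.472). Tnnt1, the slow troponin T, had a bound of 1.09-fold and Myh8, the perinatal myosin, 1.36-fold. Within groups the muscle level did not keep a sign: the left mean was above the right by 0.28 in wild-type forelimbs and below it in knockout forelimbs, where the difference was -0.21.

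Epidermis and apical ridge genes were lower on the left in 20 of 20 members, with a median of -0.21, but none reached an unadjusted p under 0.05. Among the 20 patterning and tissue lists this one had the widest median bound: a median of 1.41-fold, 1 of 20 within 1.2-fold and 15 within 1.5-fold. The list level was -0.13 ± 0.328 on the left (SD, n = 8) and 0.09 ± 0.313 on the right (SD, n = 12). In whole limbs, fewer cells of a type and less RNA per cell cannot be told apart. Krt5, the keratin of the basal layer, ran from 9.22 to 10.5 on the left (median 9.72) and from 9.67 to 10.6 on the right (median 10.01), and differed by -0.27 (SE 0.136, adjusted p = 0.553, bound 1.46-fold). Krt1, the keratin of the first suprabasal layer, differed by -0.55 (SE 0.402, adjusted p = 0.688) and had the widest bound of any listed limb gene, 2.62-fold. The list's median was -0.06 with male arrays only, where 18 of 20 were lower, and -0.13 without the first knockout right hindlimb array. Without the second wild-type left forelimb array 9 of the 20 genes had an unadjusted p under 0.05, without the first wild-type right forelimb array 5, and without the second wild-type left hindlimb array 4.

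Split by genotype, the epidermis list leaned to the right in knockouts, though no gene passed after adjustment. In the fit with a mean for each of the 8 groups by genotype, limb and side, 20 of 20 genes were lower on the left in knockouts. Their median was -0.52, and 15 of 20 had an unadjusted p under 0.05. Of all genes 5.86% were lower at that p, and of genes between levels 6 and 8, 9.31%. The 20 genes mark the same tissue and were read from the same 4 left and 6 right limbs, so they are not independent of each other. The smallest adjusted p was 0.190 (Cldn6). In wild type 18 of 20 were higher on the left, with a median of 0.08 and none at an unadjusted p under 0.05. The difference between the genotypes in the side effect had a median of -0.60, and 15 of 20 genes had an unadjusted p under 0.05. In that direction 3.70% of all genes were at that p, and 4.92% of genes between levels 6 and 8. The smallest adjusted p of the list was 0.683. Other lists also leaned in knockouts: 18 of 20 endothelial, 28 of 37 muscle and 15 of 20 tendon genes were lower on the left. Of all 19936 genes 10087 were lower there. The tendon list had a median of -0.21 and 6 genes lower at an unadjusted p under 0.05. Of 16 Hox genes 7 were at that p in knockouts, 4 higher and 3 lower. At all, 11 of the 16 were higher on the left there, with a median of 0.11. Among all genes 12.1% were at that p in either direction. For side by genotype 30 of 37 muscle and 18 of 20 endothelial genes were negative, against 9472 of all 19936 genes. Of the 16 Hox genes 7 had an unadjusted p under 0.05 for side by genotype, 5 positive and 2 negative, with a median of 0.18. Of all genes 6.67% had such a p.

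Array by array, the mean level of the 20 epidermis genes was 6.44 and 6.54 in the left knockout hindlimbs and 6.82, 6.96 and 7.67 in the right ones, without overlap. In knockout forelimbs it was 6.58 and 7.22 on the left and 7.05, 7.21 and 7.60 on the right, with overlap. In knockout hindlimbs every left array also lay below every right one for the osteoblast and perichondrium, tendon, endothelial and macrophage lists. For the cell cycle list every left array lay above every right one there, and in wild-type hindlimbs too. The order without overlap was therefore not particular to epidermis genes, and it was not tested. Krt5 was 9.22 and 9.24 in left and 9.67, 9.73 and 10.5 in right knockout hindlimbs. Its knockout side difference was -0.56 (SE 0.176, adjusted p = 0.225), that of Krt14, its basal keratin partner, -0.54 (SE 0.165, adjusted p = 0.223), and that of Trp63, the master factor of stratified epithelium, -0.37 (SE 0.135, adjusted p = 0.291). Dsp, the desmosome protein desmoplakin, differed by -0.83 (SE 0.262, adjusted p = 0.230). Grhl3, a factor of skin barrier formation, differed by -0.56 (SE 0.177, adjusted p = 0.225).

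These counts moved with single limbs. Knockout limbs held 2 male and 2 female on the left and 3 and 3 on the right. Without the first knockout left forelimb array, 8 of the 20 genes had an unadjusted p under 0.05 in knockouts and the median was -0.38. With male arrays only, which leaves 2 left and 3 right knockout limbs, 1 of 20 did and the median was -0.34. The sign stayed negative for 20 of 20 genes under every left-out array and every other setting run for this list. For the difference between genotypes, 2 genes were at that level with male arrays only, and 4 genes remained at that level without the second wild-type left hindlimb array, 5 without the first knockout left forelimb array, 7 without the second wild-type left forelimb array and 9 without the first knockout left hindlimb array. The contrast between bright and dim genes averaged 3.58 and 3.69 in left and right knockout forelimbs and 3.55 and 3.61 in knockout hindlimbs; its part in the epidermis values was not tested, and under cyclic loess scaling 15 of the 20 genes were again lower in left knockout limbs at an unadjusted p under 0.05, with a median of -0.48.

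**Figure D5:**
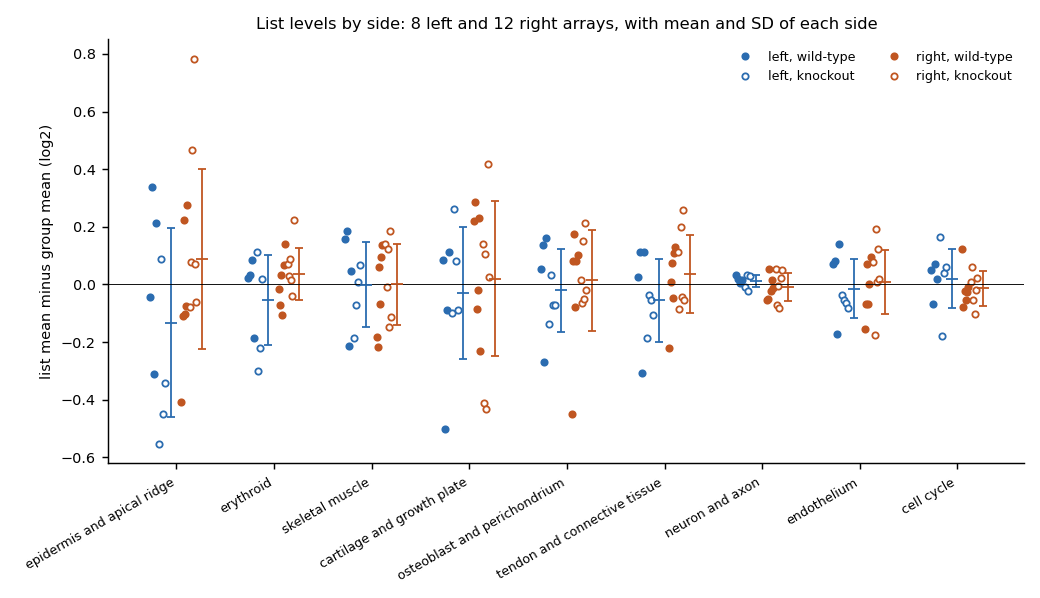
For 9 lists, each point is the mean log2 level of the list on an array minus the mean of its genotype-by-limb group, left in blue and right in orange, wild type filled and knockout open, with the mean and SD of each side as bars. The epidermis list has the widest spread, and its 4 open left points lie mostly below the open right ones. Taken over all groups, the muscle and cell cycle points of the sides overlap.

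Red blood cell genes also leaned to the right. Of 14 erythroid genes, 4 were lower and 1 higher on the left at an unadjusted p under 0.05, 35.7% of the list against 9.48% of all genes, and the median was -0.12. At all, 9 were lower and 5 higher. With male arrays only 1 gene was lower at that level, and with the arrays' first axis of variation as a covariate 0, with a median of -0.05. Without the second knockout left forelimb array the median was -0.03, with 4 genes lower at that level. Alas2, the enzyme that starts haem synthesis in red cells, ran from 5.60 to 7.17 on the left (median 6.49) and from 6.35 to 7.40 on the right (median 6.83). The difference was -0.37 (SE 0.121, unadjusted p = 0.0057, adjusted p = 0.329, bound 1.54-fold). It was -0.64 in knockouts (SE 0.153, adjusted p = 0.159) and -0.11 in wild type. Car2, the carbonic anhydrase of red cells, and Rhag, a membrane channel of red cells, differed by -0.23 and -0.22 (adjusted p of 0.417 and 0.423). Rhag was dim, at a mean level of 3.54. Hemgn, the remaining gene lower at an unadjusted p under 0.05, was also dim, at 3.98, and differed by -0.11. The embryonic globin gene Hbb-bh1 had a bound of 1.58-fold. Klf1, a red cell transcription factor, went the other way at 0.17 (unadjusted p = 0.0459), at a mean level of 4.50. The list level was -0.05 ± 0.156 on the left (SD, n = 8) and 0.04 ± 0.091 on the right (SD, n = 12).

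Vessel, nerve, pigment and immune lists were held more tightly. Of 20 endothelial genes 17 had intervals within 1.2-fold, with Cldn5, a tight junction gene of endothelium, at 1.09-fold and Lyve1, the lymphatic receptor, at 1.26-fold. Tagln, a smooth muscle actin-binding protein, was the 1 of 11 pericyte and smooth muscle genes at an unadjusted p under 0.05. It ran from 6.05 to 6.57 on the left (median 6.35) and from 6.38 to 6.86 on the right (median 6.53), with a difference of -0.26 (SE 0.075, unadjusted p = 0.0026, adjusted p = 0.315, bound 1.33-fold). The macrophage list had 16 of 18 intervals within 1.2-fold and no member at an unadjusted p under 0.05, and so had the melanoblast list, with 6 of 9 intervals within 1.2-fold. Among 17 neuron and axon genes Stmn3, Nefh and Elavl3 were higher on the left at an unadjusted p under 0.05, by 0.20, 0.16 and 0.17 (adjusted p of 0.417, 0.420 and 0.440), all at mean levels near 5. Of all genes, 5.77% were higher at that p, and of genes between levels 4 and 5, 14.5%. Under cyclic loess scaling the list had 3 higher and 2 lower at that p and a median of -0.005. Gap43, the growth cone protein of ingrowing axons and the brightest of these, was bound at 1.1-fold. Fabp7, a lipid carrier of Schwann cell precursors, differed by -0.22 at a mean level of 4.31 (SE 0.071, adjusted p = 0.327).

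Lists of cell state gave some of the narrowest bounds. All 20 cell cycle genes lay within 1.2-fold, with a median bound of 1.11-fold and a median difference of 0.03, and 17 of them were higher on the left (20 of 20 under cyclic loess scaling). All 11 stage genes, such as Mest and Lin28b, which are known to decline as embryos mature, lay within 1.2-fold with a median difference of 0.02. The immediate early and stress list had 20 of 23 intervals within 1.2-fold and a median difference of -0.004, and the hypoxia and glycolysis list 13 of 18 and -0.03. None of the 4 lists had a member at an unadjusted p under 0.05, but under cyclic loess scaling 3 cell cycle genes were higher on the left at that level.

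Within a limb type or a genotype, the sides again gave no gene past the adjusted threshold by limma. The counts at an unadjusted p under 0.05 were 1522 in forelimbs (7.63%), 1066 in hindlimbs (5.35%), 848 in wild type (4.25%) and 2421 in knockouts (12.1%), each with 0 of 19936 (0%) after adjustment. Without the first knockout left forelimb array 39 genes passed in knockouts, 38 of them higher on the left, and without the second wild-type left hindlimb array 2 passed in hindlimbs, Cdkn2c and Camk4, both lower on the left. With 4 left and 6 right limbs in each, the intervals were wider: over the 383 limb genes the median bound was 1.22-fold in forelimbs, 1.23-fold in hindlimbs, 1.24-fold in wild type and 1.25-fold in knockouts, and 358, 347, 355 and 333 genes lay within 1.5-fold. The limb genes at an unadjusted p under 0.05 numbered 20 in wild type and 74 in knockouts, 19.3% of the list against 12.1% of all genes.

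Whether the side effect depended on limb type or genotype was tested directly. For side by limb type 0 of 19936 genes (0%) passed, with 667 (3.35%) at an unadjusted p under 0.05, and for side by genotype 0 (0%), with 1330 (6.67%). The smallest adjusted p was 0.566 and 0.233. Slc1a5, a glutamine transporter, had a left minus right difference of 0.67 in forelimbs and -0.58 in hindlimbs, an interaction of -1.25 (SE 0.237, adjusted p = 0.566). In knockouts it was 6.39 and 6.64 in left forelimbs against 5.19 to 5.57 in right ones, and 5.71 and 5.78 in left hindlimbs against 6.41 to 6.56 in right ones. Calm3, a calmodulin gene, gave the same crossed order with an interaction of -0.63 (SE 0.116, adjusted p = 0.566). Plec, the cytoskeletal linker plectin, differed between the genotypes in its side effect by -0.62 (SE 0.128, adjusted p = 0.683).

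The genes with the smallest p for side were mostly dim and belonged to none of the lists. Higher on the left were Smim41, Igfals, Sspo, Wap, Olfr570, Il31, Lce1j and Drd5, each with an adjusted p of 0.223 and a left mean above the right in 4 of 4 groups. Smim41, which encodes a small membrane protein, ran from 5.51 to 5.94 on the left (median 5.62) and from 5.19 to 5.56 on the right (median 5.38), with a difference of 0.28 (SE 0.051). Wap, the whey acidic protein of milk, was between 4.62 and 4.77 on the left and between 4.17 and 4.57 on the right, and Sspo between 4.53 and 4.84 and between 4.26 and 4.63. As deviations from group means, all 8 left arrays lay above all 12 right ones for 2 of the 198 named genes, Wap and Sspo. Both were named for a small p for side, so this order adds no further support. Its share among all genes was not counted. Lower on the left were Smim26, Churc1, Pgap3, Angpt1, Defb8, Nmi, Clcn3 and Ndufaf6. Angpt1, the ligand of the endothelial receptor Tie2, had a range of 6.76 to 7.43 on the left (median 7.13) and a range of 7.17 to 7.43 on the right (median 7.38), with a difference of -0.22 (SE 0.053, adjusted p = 0.272). All 16 genes had bounds between 1.19-fold and 1.43-fold.

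Of the 383 limb genes, 11 had a bound of 1.5-fold or more: Krt1, Krt10, Dsc3, Dsp and Esrp1 of the epidermis, Matn1, Epyc and Hapln1 of cartilage, Ibsp of bone, and Hbb-bh1 and Alas2 of red cells. For these genes a side difference of that size was not excluded by 20 arrays. Genes read from the Y chromosome or Xist had the widest bounds of all those named, up to 9.39-fold for Xist. Both sexes were present within the wild-type hindlimb, knockout forelimb and knockout hindlimb groups. Left limbs were 6 male and 2 female, and right limbs 7 male and 5 female.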

How the data were processed

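The deposited table holds intensities, 1 value per probe set and array, from total RNA of single limbs on GeneChip ST arrays; the authors made them with RMA, per the submitters' processing notes. For software versions, scan dates and genome build: not given in the sources used here. Values between 1.65 and 13033 show a linear scale, so log2 was taken, with no offset. A symbol was carried by 21789 of 35512 probe sets (21698 through Entrez identifiers of RefSeq genes on GRCm38.p6, 3 through accessions, 88 by the platform's own name); 1621 with several symbols, 12101 without a name and 1 empty probe set stayed out. The probe set with the highest mean stood for a gene, 19936 in all. Microarray precision is limited by the number of arrays.

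Side (left minus right) was fitted in limma 3.58.1 under R 4.3.3 (lmFit, eBayes) with 4 genotype-by-limb means, and side within limb types or genotypes with 8 means. The threshold was a Benjamini-Hochberg adjusted p under 0.05 over all genes. Bounds use the moderated standard error and 95% t intervals. Tables were made in Python 3.11.15 with pandas 2.3.3, numpy 2.4.6 and scipy 1.17.1. Sex was read from the mean of 3 Y-linked genes, and Xist took no part in the call. The pipeline was tested on simulated data.

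The lists (25, with 482 measured entries of 514 matched by symbol) and the members were chosen with earlier results of these data known. Named genes are all members of the left-right, dorsoventral and limb-type lists, up to 4 members with the smallest p and the narrowest and widest interval of every other list, the 8 smallest p in each direction for side, the 4 smallest for each interaction, sex genes, and genes past a threshold; other epidermis and erythroid genes, Fgfr2 and genes past a threshold with an array left out were chosen after their values were seen. Alternatives covered scaling, offset, dim genes, priors, array weights, blocks, sex, probe sets and left-out arrays.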

Additional observations from a re-analysis of the deposited data

Results flagged for a closer look

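In 28 checks among the 8 left arrays, 25 of a list's level and 3 of an array measure, 1 array stood apart from the rest. Right arrays were not checked. The second wild-type left forelimb array deviated by -0.50 from its group mean for cartilage and growth plate genes (log2). Its gap to the next left array was 0.529 of the range of the 8 left arrays. Chance alone sets about 1 array apart in 20 such checks.

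Outside the named genes, probe set 10338396, which has no gene name here, passed when all probe sets were tested, with a left minus right difference of -0.32 (log2, limma adjusted p = 0.0484). It ran from 7.21 to 7.47 with a median of 7.44 in left limbs (n = 8) and from 7.51 to 7.82 with a median of 7.71 in right limbs (n = 12), without overlap.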

How the results depend on the processing

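The count of genes past the threshold for side was 1 with all probe sets tested and ranged from 0 to 1 with an array left out. In knockouts it was 2 with sex as a covariate (Mir301b and Trpd52l3, both dim and higher on the left) and ranged from 0 to 39 with an array left out; in hindlimbs the range was 0 to 2, for side by limb type 0 to 1 (Slc1a5), and 0 to 0 in forelimbs, in wild type and for side by genotype. The cause was not tested. The counts above 0 with an array left out came without the second wild-type left hindlimb array or the first knockout left forelimb array. All other settings gave 0. Cyclic loess scaling, the count within 1.2-fold and the epidermis and erythroid counts were chosen after seeing the data. Genes for side at an unadjusted p under 0.05 numbered from 908 to 3156 over settings and from 1426 to 2531 over left-out arrays.

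The median bound of the 383 limb genes was 0.216 on the log2 scale, from 0.214 to 0.237 with an array left out and from 0.164 to 0.269 (up to 1.2-fold) under the other settings. Limb genes within 1.2-fold numbered 261, from 223 to 265 with an array left out and from 183 (male arrays only) to 313 (16 added before the log). The numbers in the descriptions did not pair left with right limbs: deviations of same-numbered arrays correlated by a median of 0.0224 (-0.155 to 0.269 over 8 pairs), 1 above 0.1, and 3 pairs correlated best with their own number. With that number as a replicate block within a genotype, as a left and right pair, or as a random block, 0 genes passed for side, 1339, 1285 and 1891 had an unadjusted p under 0.05, and the median bound was 0.234, 0.240 and 0.219; the block changed no call. Of 6474 values of 198 named genes under 33 settings, 2 moved by more than the spread between limbs (Drd5 and Olfr570, 16 added). Among them 1 passed the threshold (Smim41, an array left out). A change of sign past the threshold was counted only for genes that passed in the main fit. No gene did, so that count of 0 says nothing about stability. The fit without groups was run for side over all limbs only. Signal near background limits the dim genes.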
